A study of Mus musculus with 6 samples.

Results

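Of the open regions that ATAC-seq found in every library of mouse vascular smooth muscle cells, the 5052 described here lay between protein-coding genes but within 100 kb of one. They were selected by position and by presence. Peaks of the 6 deposited lists were merged where they shared at least 1 base, which gave 85174 regions, and a region was kept if all 6 libraries had a peak in it, its midpoint lay outside every RefSeq protein-coding gene, it overlapped no window of 1000 bases on either side of a gene's start or end, and the nearest gene was at most 100 kb away. The 5052 members made up 24.4% of the 20742 regions present in 6 of 6 libraries and 19.4% of the 25984 intergenic regions within 100 kb that were found in any library. Presence in 6 libraries chose them, so their presence and the strength of their peaks are given as a description. Tests between classes use classes that passed the same presence rule, though at different rates.

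The libraries came from primary vascular smooth muscle cells of the mouse, which contract the artery wall. In 3 libraries the cells had been transfected with siRNA against Arid3a, a gene for an AT-rich interaction domain protein that binds DNA, with a different siRNA in each, and in the other 3 with a negative control. Cells were kept for 24 h after transfection, and nuclei of 50000 cells were exposed to Tn5 for 30 min. The labels also describe angiotensin II for a model of aneurysm, without saying which libraries received it. They do not state that replicates came from separate cultures, so the spread between control libraries may be technical. Between knockdown libraries the spread also holds differences between the siRNAs. The degree of knockdown was not measurable in these files. As a check of the cell type, at 9 of 18 contractile genes all 6 libraries had a peak over a gene end, against 1 of 12 endothelial, 0 of 12 epithelial and 3 of 12 leukocyte and macrophage markers. Over all genes the share was 36.5%, and 6 of the 18 contractile genes, Des among them, had no open end in any library.

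Open chromatin away from gene starts is where enhancers, silencers and insulators lie. Such elements are short stretches bound by transcription factors, which displace nucleosomes and so let the Tn5 transposase cut. Enhancers can act on a gene over long distances and need not act on the nearest one, so the gene names below say where a region lies and not which gene it controls. In vascular smooth muscle, factors of the AP-1, TEAD, SRF and RUNX families are known to bind such distal sites.

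Some members held the start of a long non-coding RNA (lncRNA), since the rule looked at protein-coding genes only. For these the RefSeq start windows (250 bases before to 50 after a start, build GRCm38.p6, the same assembly as mm10) gave the DNA of part of the region. The 3 windows below are those of the 3 best supported members among the ones that held a whole window. They are shown because they are the open DNA itself. Capitals mark matches, on either strand, to AP-1 (TGANTCA), TEAD (GGAATG), RUNX (TGTGGT) and ETS (GGAAGT) motifs. The start of Gm9875 (chr2:13558653-13558952, plus strand) lay in a member 14.0 kb from Trdmt1, that of Gm19619 (chr5:91283027-91283326, minus strand) in one 74.1 kb from Btc, and that of Gm5546 (chr3:104360269-104360568, minus strand) in one 93.5 kb from Lrig2.
Gm9875: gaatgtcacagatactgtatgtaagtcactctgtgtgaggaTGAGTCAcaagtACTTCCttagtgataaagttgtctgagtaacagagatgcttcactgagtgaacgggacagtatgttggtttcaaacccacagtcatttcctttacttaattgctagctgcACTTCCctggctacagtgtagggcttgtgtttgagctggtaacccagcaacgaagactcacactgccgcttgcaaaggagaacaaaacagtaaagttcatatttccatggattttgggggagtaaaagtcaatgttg
Gm19619: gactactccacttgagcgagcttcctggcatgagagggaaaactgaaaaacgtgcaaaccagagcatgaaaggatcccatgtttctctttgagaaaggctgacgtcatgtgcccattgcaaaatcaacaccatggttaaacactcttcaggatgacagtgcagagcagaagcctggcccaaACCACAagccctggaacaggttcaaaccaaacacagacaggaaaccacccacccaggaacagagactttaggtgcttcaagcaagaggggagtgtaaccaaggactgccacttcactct
Gm5546: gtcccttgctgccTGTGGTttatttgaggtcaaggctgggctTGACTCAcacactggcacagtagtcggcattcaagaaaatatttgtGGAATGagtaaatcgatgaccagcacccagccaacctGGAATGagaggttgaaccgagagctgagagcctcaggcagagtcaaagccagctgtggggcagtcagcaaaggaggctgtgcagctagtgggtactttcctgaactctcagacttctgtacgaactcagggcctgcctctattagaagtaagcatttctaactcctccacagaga
Gm9875 held 1 AP-1 and 2 ETS matches, Gm19619 1 RUNX match, and Gm5546 1 AP-1, 2 TEAD and 1 RUNX match. All 3 regions were strongly open in both groups. Fold enrichment at the summit, the authors' own ratio of tags to local background, was 13.3, 12.5 and 11.1 in knockdown replicates 1 to 3 and 11.4, 11.3 and 11.7 in control replicates 1 to 3 at Gm9875. At Gm19619 it was 16.9, 18.5 and 14.3 in the knockdown libraries and 15.9, 14.2 and 17.8 in the control libraries. At Gm5546 it was 16.3, 15.3 and 14.0 in the knockdown libraries and 15.2, 11.4 and 14.8 in the control libraries. The ranges of the groups overlapped at all 3.

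One start window per member was wholly inside the region for 128 members. AP-1 matches stood in 27 of these (21.1%), in 9.31% of all 11588 lncRNA start windows and in 6.99% of 21263 protein-coding ones. Windows wholly inside intergenic regions found in 1 to 5 libraries held one in 16 of 58 (27.6%), so the AP-1 share was not higher in members than in less regular open regions. TEAD matches stood in 22.7% of the members' windows, 24.1% of the other intergenic ones and 16.6% of all lncRNA windows. The CArG box bound by SRF stood in 2.34%, 1.72% and 1.82% of the same sets, and the RUNX motif in 18.8%, 15.5% and 20%. The ETS motif stood in 28.1%, 25.9% and 21.9%, the NFI motif (TTGGC) in 53.1%, 50% and 44.5%, and a short CTCF core (CCCTC) in 71.1%, 67.2% and 59.3%. ATTAAA, an AT-rich word of the kind ARID3A binds, stood in 7.81% of the members' windows, 8.62% of the other intergenic ones and 17.9% of all lncRNA windows. In the protein-coding windows the shares were 13.6% (TEAD), 1.52% (CArG box), 15.0% (RUNX), 24.8% (ETS), 47.9% (NFI), 69.6% (CTCF core) and 11.7% (ATTAAA). GC content was 55.9% in the members' windows, 53.1% in the other intergenic ones, 49.3% in all lncRNA windows and 56.2% in protein-coding ones. Its part in these shares was not tested. A match is a string of letters and not a bound site.

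Members lay at lncRNA starts more often than the less regular intergenic regions did. On the chromosomes that the start table covers, 225 of 4843 members (4.65%) had their midpoint within 500 bases of a lncRNA start. The share was 2.96% of intergenic regions found in 5 libraries, 2.02% of those found in 2 to 4 and 1.62% of those found in 1 library, and 2.63% of the regions present in 6 of 6 libraries that lay farther than 100 kb from a gene. Position inside any lncRNA gene differed less, at 20.3% of members against 20.6%, 18.3% and 16.6% of intergenic regions found in 5, in 2 to 4 and in 1 library. Regions are not replicates, so these shares carry no test.

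MicroRNA hairpins overlapped 3 members. The hairpin of Mir34a, a microRNA known to be induced by p53 and to slow the cell cycle, lay wholly inside a member at chr4:150068210-150068765, 19.0 kb upstream of Gpr157. Its mature arms, shown with the seed (bases 2 to 8) in capitals, were these.
mmu-miR-34a-5p: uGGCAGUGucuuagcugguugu
mmu-miR-34a-3p: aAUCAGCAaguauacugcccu
Fold enrichment at the summit of this region was 8.36, 9.09 and 7.19 in knockdown replicates 1 to 3 and 9.96, 7.41 and 9.86 in control replicates 1 to 3, and these ranges overlapped. The level of fold enrichment differed between libraries, so ranks were used as well. Each region was ranked by fold among the 20742 regions present in 6 of 6 libraries, a list of the same length in each library, and given its percentile. The Mir34a region stood at percentiles 37.6, 45.9 and 42.9 in the knockdown libraries and at 58.7, 59.3 and 58.3 in the control libraries, so its ranks did not overlap. It was singled out after its values were seen, and it was no longer a member when 50% coverage of the region was required of each library. The hairpins of Mir7671, 6.24 kb from Irf1, and Mir713, 11.6 kb from Gm5141, lay in members whose ranks overlapped between the groups.

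Knockdown replicate 3 and control replicate 2 stood apart, with fewer tags at member summits and shorter peak lists. Fold and −log10 p together fix the number of tags at a summit under the Poisson model of MACS2, and a whole number of tags matched within 0.001 for every member in every library. The median member held 18, 19 and 12 tags in knockdown replicates 1 to 3 and 18, 10 and 19 in control replicates 1 to 3. A count of 10 has an exact Poisson interval (95%) of 4.80 to 18.4 and a count of 19 one of 11.4 to 29.7, for counting error only. Their lists held 41629 and 33248 peaks, while the other 4 held 50543 to 52091. These 2 libraries gave the weakest peak in most members, knockdown replicate 3 in 1315 (26.0%) and control replicate 2 in 3104 (61.4%).

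The same libraries were most often the missing one among regions that just failed the rule. Of 2715 intergenic regions found in 5 of 6 libraries, control replicate 2 was the missing one for 1551 (57.1%) and knockdown replicate 3 for 629 (23.2%), while each other library was missing for 122 to 155. Leaving out control replicate 2 and asking for the other 5 gave 6603 members, and leaving out knockdown replicate 3 gave 5682. The weakest members, near Skap2, Akap17b and Lbh, had a −log10 q of 1.31 in knockdown replicate 3, close to the lowest values of the lists, 1.3 to 1.32. The strongest regions just outside were near Prkch, Cebpb and Kcnh2, where the lowest −log10 q of the 5 libraries with a peak was 26.1, 22.4 and 21.3, and all 3 lacked a peak in control replicate 2.

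**Figure D1:**
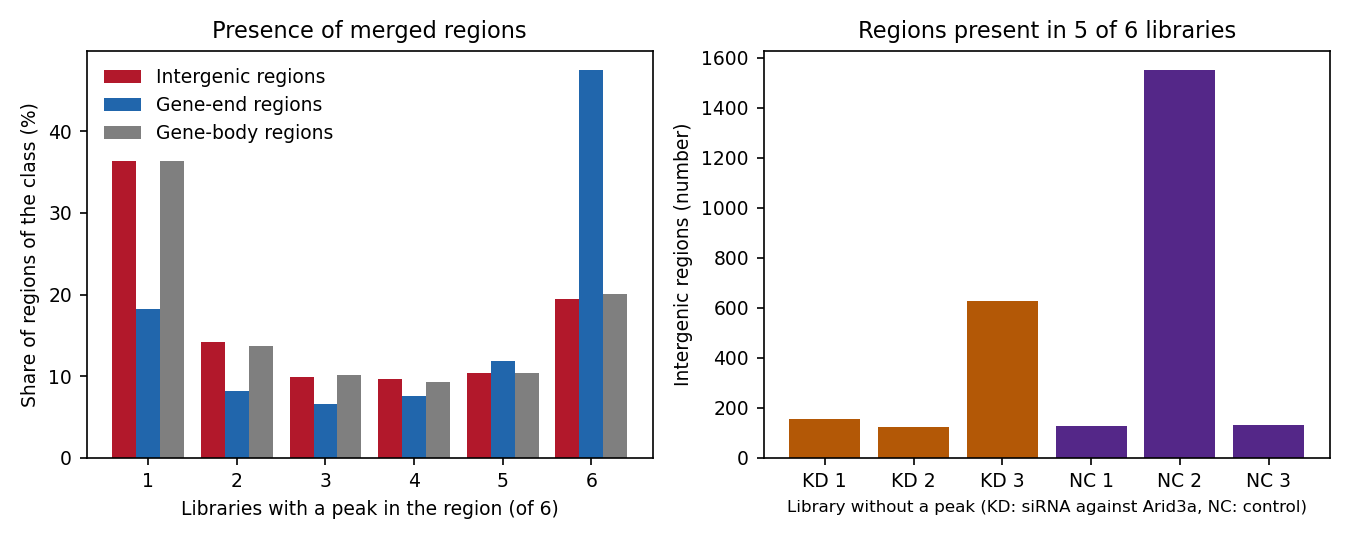
Left: share of merged regions of each class (%, vertical axis) by the number of libraries with a peak (1 to 6, horizontal axis), for intergenic regions within 100 kb, gene-end regions and gene-body regions. Right: number of intergenic regions found in 5 of 6 libraries, by the library without a peak. In 6 of 6 libraries stood 19.4% of intergenic, 47.5% of gene-end and 20.1% of gene-body regions, and control replicate 2 was the library most often without a peak.

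Presence in every library was about as common between genes as within them. It held for 5052 of 25984 intergenic regions (19.4%), 7349 of 36535 regions inside genes (20.1%), 7004 of 14753 regions at gene ends (47.5%) and 1337 of 7902 regions beyond 100 kb (16.9%). It changed little with distance. Of intergenic regions up to 5 kb from a gene 18.1% were members, and 19.2%, 19.3%, 20.6% and 19.1% of those at 5 to 10, 10 to 20, 20 to 50 and 50 to 100 kb. The median member lay 19.5 kb from its nearest gene. Strand was known for the nearest gene of 3842 members, and 2052 of them (53.4%) lay upstream, against 52.7% of intergenic regions found in 1 library. Upstream positions were fewer among the members up to 5 kb away (42.8%) and 51.6% to 56.8% of those farther out. Chromosome 11 held the most members, 403, and the Y chromosome none. On the X chromosome 62 of 583 intergenic regions (10.6%) were members, below the lowest share of an autosome, 16.1% on chromosomes 7, 9 and 13, and the highest was 25.4% on chromosome 17.

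Among regions present in 6 of 6 libraries, members were narrower than gene-end regions and had about the same peak height. That rule selects on peak strength, and it passed 19.4% of intergenic, 20.1% of gene-body and 47.5% of gene-end regions. Its part in the similar height was not tested, so the comparison of heights holds only for the regions it kept. The median peak was 415, 432 and 390 bases wide in knockdown replicates 1 to 3 and 427, 375 and 447 bases in control replicates 1 to 3, against 495 to 620 bases for gene-end regions present in 6 of 6 libraries. The mean difference over libraries was −148 bases (6 of 6 libraries, exact two-sided sign-flip permutation p = 0.031, the smallest that 6 libraries allow, adjusted p = 0.0469 over 6 comparisons of classes). Against regions inside genes the mean difference was −8 bases, again in 6 of 6 libraries (adjusted p = 0.0469 by the same exact permutation test). The median log2 fold of members was higher than that of gene-body regions by 0.0212 in 6 of 6 libraries (adjusted p = 0.0469 by the same exact test). It was higher than that of gene-end regions by 0.0251, but lower in control replicate 2 (adjusted p = 0.113 by the same exact test). Without control replicate 2 it was 0.00658, without knockdown replicate 3 0.00913, and 0.0162 to 0.0201 without 1 of the others, and with 50% coverage of the region required of each library it turned to −0.0208 (adjusted p = 0.0375 by the same exact test). Both differences in fold were small beside the SD of the members' median between libraries, 0.203 on the log2 scale. Medians of gene-end and gene-body regions had SDs of 0.181 and 0.200. This spread in level is shared by the classes and does not enter the tests, which compare classes within a library. With all lists shortened to the length of the shortest, the adjusted p of the fold and width differences that had passed rose to between 0.0625 and 0.0938 (exact test). The libraries share their regions and their cell type, so these tests speak of repeats of the assay in these cells, under the different siRNAs and the negative control.

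**Figure D2:**
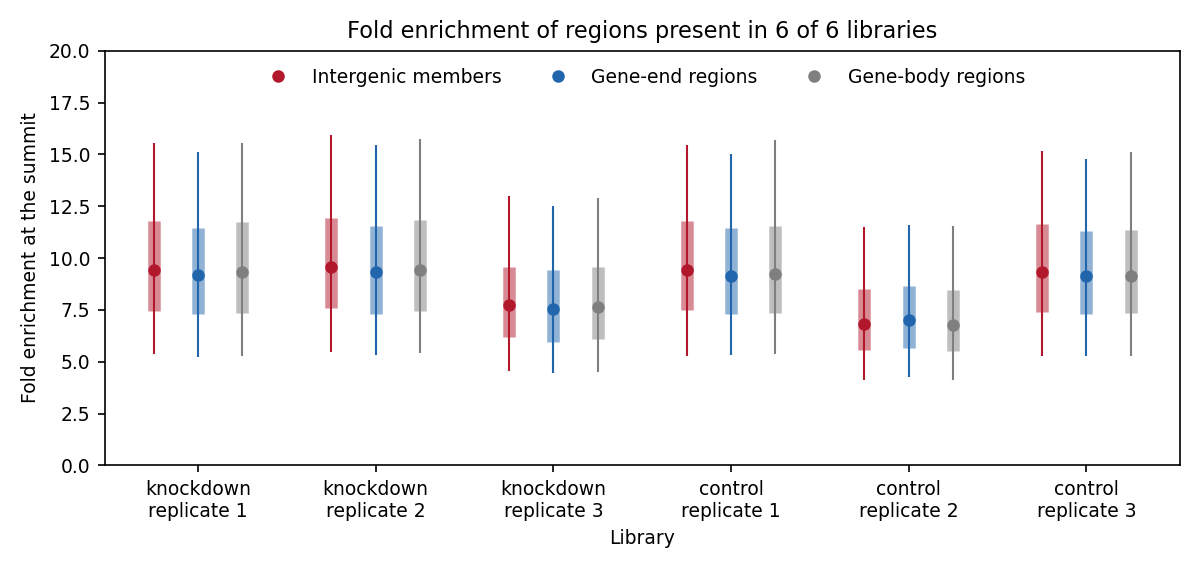
Fold enrichment at the summit (vertical axis) of regions present in 6 of 6 libraries, by library, for intergenic members, gene-end regions and gene-body regions. Points are medians, thick bars span the middle 50% and thin lines the middle 90% of regions. Medians of the members were 9.43, 9.57 and 7.71 in the knockdown libraries and 9.40, 6.84 and 9.34 in the control libraries, close to the other classes in each.

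Summits of members fell about as close together across libraries as those of gene-body regions. The rule did not use summits, but merging overlapping peaks limits how far apart they can lie. They are therefore read against classes built in the same way. The outermost summits of the 6 libraries were a median of 126 bases apart in members, 180 bases in gene-end regions and 125 bases in gene-body regions. In 374 members (7.40%) all 6 summits lay within 50 bases. The distance of a library's summit from the median of the other libraries had a median over members of 36, 35 and 39 bases in knockdown replicates 1 to 3 and 34, 46 and 35 bases in control replicates 1 to 3. It was smaller in members than in gene-end regions (mean difference −9.83 bases, the same way in 6 of 6 libraries, adjusted p = 0.0469 by the exact sign-flip permutation test, and 0.0625 with lists of equal length) and differed from that in gene-body regions by 0.833 bases (adjusted p = 0.125 by the same exact test). Gene-end regions were also wider, with a median of 826 bases after merging against 594 for members, and the part of width in this difference was not tested.

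**Figure D3:**
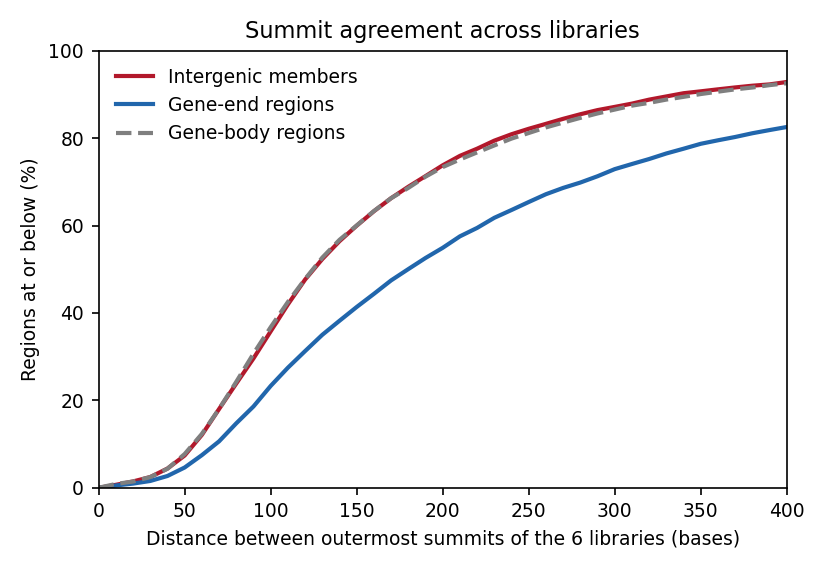
Share of regions present in 6 of 6 libraries (%, vertical axis) whose outermost summits lie at or below a given distance (bases, horizontal axis), for intergenic members, gene-end regions and gene-body regions. The curves of members and gene-body regions run together, with medians of 126 and 125 bases, and the gene-end curve lies to the right, with a median of 180 bases.

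The strongest members had summits far above background in all libraries. Ranked by their smallest −log10 q over the 6 libraries, the first lay 19.9 kb downstream of Lclat1, which encodes a lysophospholipid acyltransferase of the cardiolipin pathway (chromosome 17, 73263017 to 73263594). Its fold was 21.1, 18.9 and 17.5 in the knockdown libraries and 17.4, 17.7 and 17.3 in the control libraries, with 41 to 61 tags at the summit. The second lay 18.8 kb upstream of 1600014C23Rik on the same chromosome, with folds of 15.8, 18.5 and 14.9 in the knockdown libraries and 18.1, 15.4 and 13.8 in the control libraries. The third, 3.03 kb from the beta-defensin gene Defb43 (chromosome 14, 63020650 to 63021589), stood beside a gene whose ends were open in 0 of 6 libraries.

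Ank, Tnfrsf11b and Actb were the nearest genes of 3 of the others. Ank encodes a membrane protein of pyrophosphate transport, which restrains mineral deposition, and its member (chromosome 15, 27405519 to 27406324, 60.8 kb upstream) had folds of 16.4, 19.6 and 18.1 in the knockdown libraries and 19.3, 16.1 and 17.0 in the control libraries. Tnfrsf11b encodes osteoprotegerin, the soluble decoy receptor for the ligand RANKL, and its member (chromosome 15, 54226886 to 54227646, 23.4 kb away) had folds of 18.1, 18.4 and 16.2 in the knockdown libraries and 16.8, 16.9 and 19.2 in the control libraries. At 13 kb from Actb, the gene of cytoplasmic beta-actin, the folds were 20.1, 22.3 and 15.4 in the knockdown libraries and 22.5, 17.9 and 18.2 in the control libraries. The ends of Actb itself had a called peak in 2 of 6 libraries.

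Sspn encodes sarcospan, a member of the dystrophin complex, and Ndrg1 a protein induced by stress and hypoxia. Fold at their members was 14.6 to 20.1 and 14.6 to 16.4 over the 6 libraries. Those near Arhgap12 and the kinase gene Map3k8 were 14.4 to 17.2 and 15.1 to 21.7. At Ndrg1 the 6 summits lay within 4 bases of each other. In each of these 10 members the groups' percentiles overlapped and every library put it at percentile 90.7 or higher.

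Members were spread over many genes, with a few dense stretches. They had 3342 different nearest genes, of which 2326 had 1 member, 851 had 2 or 3 and 165 had 4 or more. The last group was 0.754% of all protein-coding genes and held 805 members (15.9%). The share of genes with an open end was higher for the 165 genes with 4 or more members than for genes with fewer, and was not tested. Open ends in all 6 libraries were found for 50.9% of genes with 4 or more members, 43.8% of those with 2 or 3 and 43.6% of those with 1, against 37.0% of genes whose intergenic regions held no member and 36.5% of all genes. A region inside the gene in all libraries was found for 46.7%, 38.4% and 31.1% of the same 3 groups, against 23.4% of genes whose intergenic regions held no member.

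Thbs2, which encodes the matrix protein thrombospondin-2, and 1600014C23Rik each had 11 members out of 16 intergenic regions. Those of Thbs2 lay 2.91 to 56.4 kb from the gene, 8 below and 3 above it, and their smallest −log10 q ran from 2.17 to 19.6. Of those nearest to 1600014C23Rik, 10 lay between it and Vegfa, the gene of the vascular growth factor VEGF-A, within 84.0 kb. Tomm20, for a receptor of mitochondrial protein import, had 10 of 15. The transcriptional regulator genes Irf2bp2 and Sp3 had 9 of 23 and 9 of 16. Azin1, whose product inhibits antizyme in polyamine metabolism, the 14-3-3 gene Ywhaz, Zfp36l2, for an mRNA-binding zinc finger protein, and Zfp438 had 8 each. The ends of 7 of these 9 genes were open in every library, those of 1600014C23Rik in 5 and those of Ywhaz in 1.

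The interval between 2 genes that held the most members ran from Irf2bp2 to Tomm20 on chromosome 8. It held 15 members among 29 intergenic regions over 316 kb, between 126603244 and 126919727. They fell in a group of 5 toward Irf2bp2 and a group of 10 toward Tomm20, with no member between 83.6 and 236 kb from the first one. The members at the edges of this stretch lay 93.3 kb from Irf2bp2 and 91.1 kb from Tomm20. The rule leaves out regions over 100 kb from a gene, so most of the stretch could hold no member. The member nearest to Tomm20 was one of the highest, with folds of 16.0, 16.7 and 13.3 in the knockdown libraries and 15.0, 9.86 and 15.1 in the control libraries. The lowest by its median fold had 6.67, 5.51 and 5.04 in the knockdown libraries and 6.31, 4.77 and 6.20 in the control libraries. Both sets of values overlapped between the groups. The interval from Haao to Zfp36l2 held 13 members, that from Cebpb to Ptpn1 11, and those from Rai14 to C1qtnf3 and from 1600014C23Rik to Vegfa 10 each. Of all 2999 intervals with a member, 1918 (64%) held 1, and 125 held 5 or more.

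**Figure D4:**
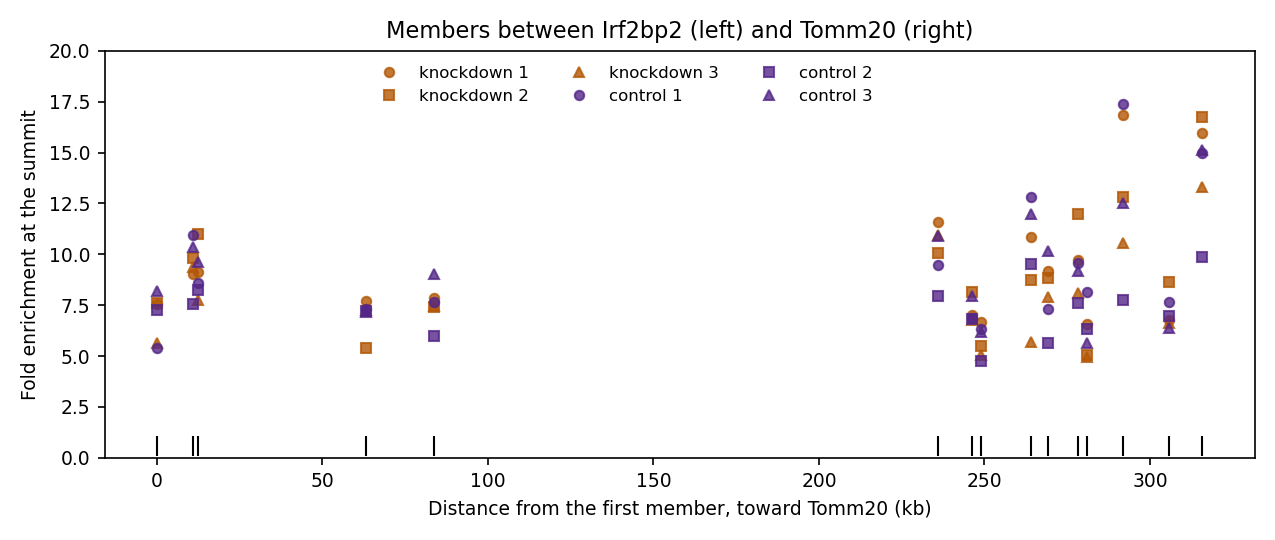
Fold enrichment at the summit (vertical axis) of the 15 members between Irf2bp2 and Tomm20, by their distance from the first member (kb, horizontal axis). Each point is a library, ticks at the bottom mark the members, and knockdown and control points mix in each, with 10 members in the part beyond 236 kb.

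Contractile genes had 9 members among 40 intergenic regions (22.5%, against 19.4% of all intergenic regions within 100 kb). Vcl, for the actin-anchoring protein vinculin, had 3, Smtn, for smoothelin, and Csrp1, for a LIM protein of the cytoskeleton, 2 each, and Des, for desmin, and Tpm1, for tropomyosin, 1 each. Acta2, Tagln and Myh11 had none. The strongest lay 28.8 kb upstream of Smtn (chromosome 11, 3567876 to 3568331) with folds of 9.43, 12.7 and 8.78 in the knockdown libraries and 10.4, 8.94 and 11.6 in the control libraries. The values of both groups overlapped.

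Regulators of the smooth muscle state had 26 members among 104 (25%), spread over 13 genes. Mrtfb, for a coactivator of SRF, had 4, and Gata6, for a transcription factor of the vessel wall, and Notch3, for the Notch receptor of mural cells, 3 each. Klf4, a factor known to drive smooth muscle cells away from the contractile state, Mef2a, Mef2d, Myocd, Prrx1 and Tead1 had 2 each. The strongest, 14.5 kb upstream of Mef2a (chromosome 7, 67390752 to 67391221), had folds of 12.6, 13 and 10.9 in the knockdown libraries and 12.5, 11.4 and 12.7 in the control libraries. The ends of Mef2a itself were open in 0 of 6 libraries.

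Of the TGF-β and SMAD genes 14 had a member, 28 of 126 regions (22.2%), led by Smad6, an inhibitory SMAD, with 4. Collagen and matrix genes had 25 of 125 (20%), among them 6 at the fibrillar collagen gene Col5a1, 5 of them upstream at 11.7 to 50.2 kb. The strongest of that list, no longer a member with 50% coverage required, was 89.4 kb from Postn, for periostin, with folds of 20.9, 16.8 and 11.9 in the knockdown libraries and 16.8, 11.8 and 14.4 in the control libraries. Elastic fibre genes had 9 of 40 (22.5%), the strongest 4.67 kb upstream of Fbln2, for fibulin-2. Its folds were 9.53, 8.47 and 9.50 in the knockdown libraries and 6.92, 8.02 and 7.08 in the control libraries. Those folds did not overlap, while its percentiles did. Matrix proteases and inhibitors had 6 of 36 (16.7%), the strongest 6.78 kb from Mmp14, for a membrane-bound metalloproteinase, with folds of 9.17, 13.7 and 10.3 in the knockdown libraries and 11.5, 8.76 and 9.35 in the control libraries.

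AP-1 genes and genes of growth and the cell cycle had the highest shares of the gene lists, 15 of 48 (31.2%) and 25 of 78 (32.1%). The AP-1 members lay at 7 genes and the growth members at 9, so these shares rest on few genes and carry no test. With regions assigned to both flanking genes they were 29.2% and 27.3%. Fos, Fosb, Jun and Atf3, early-response factors, had 3 members each. The strongest of them, 38.9 kb upstream of Atf3, had folds of 14.0, 14.2 and 12.8 in the knockdown libraries and 14.6, 12.1 and 16.6 in the control libraries. Myc, for the growth-promoting transcription factor, had 6 members, all on its high-coordinate side at 8.68 to 89.1 kb, and Ccnd1, for cyclin D1, and Igf1, for insulin-like growth factor 1, 4 each. The member 71.9 kb downstream of Igf1 (chromosome 10, 88008713 to 88009178) had folds of 19.4, 17.7 and 20.2 in the knockdown libraries and 17.7, 16.2 and 17.7 in the control libraries. The lowest knockdown fold lay just above the highest control fold, and the percentiles overlapped.

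Inflammation genes had 25 of 106 (23.6%). Ptgs2, for the inducible cyclooxygenase, had 6, the chemokine gene Cxcl12 4 and Ccl2 3. The strongest, 4.32 kb from Ccl5, had folds of 12.5, 13 and 11.9 in the knockdown libraries and 12.7, 12.8 and 13.7 in the control libraries, while the ends of Ccl5 were open in 0 of 6. Genes of angiotensin signalling and oxidants had 7 of 30 (23.3%), 3 of them at Nfe2l2, the regulator of antioxidant genes. The strongest, 58.8 kb upstream of Nfe2l2, had folds of 11.9, 15 and 11 in the knockdown libraries and 12.7, 11.8 and 13.3 in the control libraries, which overlapped. The ARID family had 5 of 26 (19.2%), 1 each at Arid1b, Arid5a, Arid5b, Jarid2 and Kdm5a. Arid3a had none. The strongest of the ARID list, 8.70 kb from Kdm5a, had folds of 15.4, 16.5 and 13.5 in the knockdown libraries and 19.3, 10.2 and 15.6 in the control libraries.

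Members also lay near genes of other cell types. Endothelial markers had 9 of 41 (22.0%), 4 of them at the VEGF receptor gene Flt1. One was 11.4 kb upstream of Kdr, the gene of the main VEGF receptor, with folds of 15.2, 18.6 and 14.7 in the knockdown libraries and 14.8, 11.3 and 15.1 in the control libraries. Epithelial markers had 5 of 27 (18.5%), the strongest 64.5 kb upstream of Epcam, with folds of 14.2, 14.9 and 12.2 in the knockdown libraries and 13.9, 11.6 and 14.8 in the control libraries. Fibroblast markers had 3 of 34 (8.82%, but 19.1% with regions assigned to both flanking genes), the strongest 9.98 kb downstream of the growth factor receptor gene Pdgfra, with folds of 12.5, 13.1 and 5.23 in the knockdown libraries and 10.5, 9.43 and 11.4 in the control libraries. That member was lost at a −log10 q of 5. Neural and Schwann markers had 2 of 13 (15.4%), the strongest 34.6 kb from Snap25, for a protein of synaptic vesicle fusion, with folds of 7.02, 8.01 and 8.04 in the knockdown libraries and 7.78, 6.18 and 6.73 in the control libraries. Leukocyte and macrophage markers had 0 of 6, for which the exact binomial limit (95%) is 45.9%, but 3 of 16 (18.8%) with regions assigned to both flanking genes. At each of these strongest members of a list the percentiles of the groups overlapped, and the folds overlapped at all but Fbln2 and Igf1. Of the 12 endothelial markers 8, and of the 12 epithelial 11, had no open end in any of the 6.

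Between the groups, differences in the numbers taken over all members stayed within the spread of libraries when the full lists were used. Members took 10.2%, 10.0% and 12.3% of all peaks in knockdown replicates 1 to 3 and 10.0%, 15.3% and 9.83% in control replicates 1 to 3 (10.9% ± 1.26 and 11.7% ± 3.11, SD, n = 3 each, exact two-sided permutation p = 1). The rule requires a peak of every library in each member, so the lists held similar numbers of member peaks, 5089 to 5163. The share therefore mostly reflects the length of the list, and its test says little about the members. Without control replicate 2, the library with the shortest list, the difference of −0.868 percentage points turned to 1.20. The median peak of members was 412 ± 21.1 bases wide in the knockdown libraries and 416 ± 37.2 bases in the control libraries (SD, n = 3 each, exact permutation p = 1). Their median log2 fold relative to all regions present in 6 of 6 libraries was 0.0186 ± 0.00228 in the knockdown libraries and 0.0103 ± 0.0170 in the control libraries (SD, n = 3 each, exact permutation p = 0.8). With 3 libraries against 3 the smallest possible p is 0.1.

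Similarity within groups and across groups was close. Spearman's rank correlation of fold over the 5052 members ran from 0.604 to 0.741 between libraries, where the points share their depth. It averaged 0.675 over pairs within a group and 0.679 over pairs across groups (exact permutation p = 1). Each of the 5 lowest values had control replicate 2 in the pair. The median distance between the summits of 2 libraries was 42 to 55 bases, on average 47.7 within groups and 47.2 across groups (exact permutation p = 0.6). All 5 adjusted p-values of these group comparisons were 1.

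Ranks of single members shifted between the groups about as often as those of other regions. The 3 knockdown percentiles lay wholly above the 3 control percentiles in 266 members (5.27%), against 4.99% of all 20742 regions present in 6 of 6 libraries. They lay wholly below in 231 members (4.57%), against 4.97% of all. For gene-end regions these shares were 3.77% and 5.41%, and for gene-body regions 5.65% and 4.87%. A gap of over 10 percentile points separated the groups in 51 members each way (1.01%), against 1.01% upward and 1.09% downward over all regions present in 6 of 6 libraries. An exact permutation test of 1 region with 3 libraries against 3 cannot go below p = 0.1, so what follows is a description.

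The widest gaps upward were near Chka, Mdm1, Syt6, Rasgrf1 and Slc2a1. At 12.5 kb from Chka, the gene of a choline kinase (chromosome 19, 3838792 to 3839400), the fold was 12.1, 11.9 and 9.32 in the knockdown libraries and 7.93, 5.32 and 8.35 in the control libraries, at percentiles 78.7, 76.5 and 72.8 against 32.3, 20.8 and 38.2. Its summit held 22, 20 and 13 tags in the knockdown libraries and 12, 6 and 15 in the control libraries. The member 2.84 kb upstream of Slc2a1, which encodes the glucose transporter GLUT1 (chromosome 4, 119105756 to 119106057), had folds of 9.09, 9.61 and 8.95 in the knockdown libraries and 7.18, 5.08 and 7.00 in the control libraries. Near Rasgrf1, for a Ras exchange factor, and Syt6, for a synaptotagmin, the knockdown libraries had 10.1 to 13.5 and 9.77 to 11.4, and the control libraries 6.67 to 9.21 and 6.37 to 8.40. Near Mdm1 the knockdown libraries had 8.91 to 11 and the control libraries 3.86 to 7.75. The fold values of the groups did not overlap in any of these 5.

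The widest gaps downward were near Tnfsf11, Hhipl2, Il1b, Cd34 and Scaf8. Tnfsf11 encodes RANKL, the ligand that osteoprotegerin binds, and its member 75.4 kb upstream (chromosome 14, 78383243 to 78383697) had folds of 8.26, 8.65 and 6.88 in the knockdown libraries and 14.2, 10.2 and 12.2 in the control libraries. It stood at percentiles 36.2, 40.2 and 37.9 in the knockdown libraries and 91.3, 89.1 and 81.2 in the control libraries, with 15, 17 and 10 tags against 33, 15 and 26. Tags are not scaled for depth, and those of the groups overlapped.

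The member 26.2 kb downstream of Il1b, the gene of interleukin-1β (chromosome 2, 129338043 to 129338634), had folds of 6.61, 6.84 and 5.68 in the knockdown libraries and 9.62, 7.36 and 13.3 in the control libraries. At 52.9 kb upstream of Cd34, for a surface sialomucin of endothelial and progenitor cells, the knockdown libraries had 5.76 to 8.17 and the control libraries 8.70 to 12.3. Near Hhipl2 they had 6.03 to 8.66 in the knockdown libraries and 8.93 to 13.8 in the control libraries, and near Scaf8 5.62 to 8.72 and 8.03 to 11.4, where the folds, but not the percentiles, overlapped. All 10 members kept their groups apart when −log10 q was ranked in place of fold. Both values come from the same tags and background, so this is no independent support. With 50% coverage required of each library, those near Chka, Mdm1, Syt6, Rasgrf1, Hhipl2, Cd34 and Scaf8 were no longer members. Those near Chka and Mdm1 were also lost at a −log10 q of 5, and that near Cd34 with lists of equal length.

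**Figure D5:**
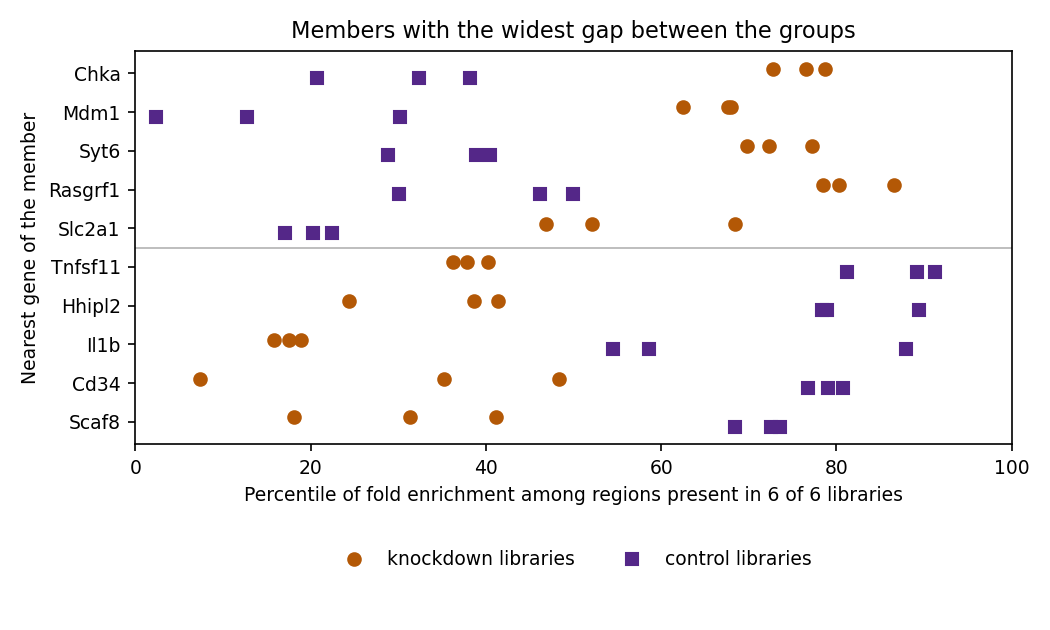
Percentile of fold enrichment among the regions present in 6 of 6 libraries (horizontal axis) for the 5 members with the widest gap upward and the 5 with the widest gap downward, named by their nearest gene (vertical axis). Circles are the 3 knockdown libraries and squares the 3 control libraries. At Chka the knockdown libraries sit at 72.8 to 78.7 and the control libraries at 20.8 to 38.2, and at Tnfsf11 at 36.2 to 40.2 and 81.2 to 91.3.

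Of the 196 members of the gene lists, knockdown percentiles lay wholly above control in 4 (2.04%, against 4.99% of all regions present in 6 of 6 libraries) and wholly below in 12 (6.12%, against 4.97%). The 4 above were 1 each of the contractile, regulator, inflammation and AP-1 lists, near Vcl, Tead1, Il1r1 and Fosb. The 12 below were 3 of the TGF-β list, near Id3 and Smad7, 2 each of the regulators (Gata6 and Klf4), of collagen and matrix genes (Col6a3 and Fn1) and of growth genes (Igf1 and Myc), and 1 each of the elastic fibre, AP-1 and inflammation lists, near Lox, Fosl1 and Il1b. The gap was 20.7 percentile points near Col6a3, 35.6 near Il1b and smaller in the others.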

How the data were processed

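The 6 ATAC-seq libraries came from vascular smooth muscle cells of the mouse, 3 per group. Per the submitters' processing notes the authors used Bowtie2, Picard and MACS2 on mm10. Tool versions, duplicate handling, any Tn5 shift and peak-calling settings were not given in the sources used here. The authors deposited 1 peak list per library with fold enrichment (a ratio to the local background), −log10 p, −log10 q and a score (10 times −log10 q, cut to a whole number, in all but 18 of 280120 peaks). The lowest −log10 q was 1.3 to 1.32 per list. Presence near this limit depends on depth. Total read depth is unknown, so tags at summits were recovered. Kept duplicates would raise those tags.

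Peaks were merged, classed by RefSeq genes of GRCm38.p6 (21887 protein-coding) and measured with pandas 2.3.3, numpy 2.4.6 and scipy 1.17.1 (Python 3.11.15). In a region with several peaks of a library, the one of highest fold was used. Group numbers were compared by exact permutation over 20 relabellings and classes by exact sign flips per library (64 patterns), with Benjamini-Hochberg adjustment over 5 and 6 tests. Scripts were tested on simulated lists. Intervals are exact (Poisson or Clopper-Pearson) and cover counting error only.

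The members and lists were chosen with earlier results of these data known. Named members are the 10 with the highest smallest −log10 q, the 8 genes with most members (9 with ties), the 5 widest rank gaps each way, the strongest of each list (that of the TGF-β list is not reported here), and those just inside and outside the rule. Members with lncRNA starts and hairpins were added after seeing the data, as were the genes of shifted list members. Promoter and microRNA sequences are from RefSeq, GRCm38.p6, and no genome was used. The nearest gene's strand came from the same table. Same-numbered libraries of the groups were not paired in the main tests. Alternatives were a −log10 q of 5, equal list lengths, 50% coverage, windows of 2000 bases, 50 kb, means, pairing by number and leaving out each library.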

Additional observations from a re-analysis of the deposited data

How the results depend on the processing

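The number of members was 3345 at a −log10 q of 5 or more and 3020 with 50% coverage, 4060 with lists of equal length, and 5172 to 6603 when 1 library was left out. Every member found under the first 3 overlapped one of the 5052, which is largely fixed, since these settings only remove peaks or tighten the presence rule. Members with knockdown percentiles wholly above control then numbered 168 of 3345 and 150 of 3020 for the first 2 settings. Without 1 library, where fewer libraries have to agree, they ran from 515 of 5172 (without knockdown replicate 2) to 692 of 6603 (without control replicate 2). Those wholly below numbered 141 of 3020 with 50% coverage. Without 1 library they ran from 472 of 5174 (without control replicate 1) to 647 of 6603 (without control replicate 2). The same count over all regions was not taken under these settings, so the changes are not read as a result about the members.

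With lists of equal length, the difference in the share of peaks turned to 0.0531 percentage points (exact permutation p = 0.1, the smallest possible, adjusted p = 0.5). In such lists this share can differ only through members that hold several peaks of a library. The difference in summit distance turned to −0.222 bases. Adjusted p over the class comparisons rose to 0.0625 for log2 fold against gene-body regions (0.0187) and for width (−157 bases) and summit spread (−8.17 bases) against gene-end regions, and to 0.0938 for width against gene-body regions (−5.83 bases). With 50% coverage the group difference in width turned to 1.33 bases and the log2 fold difference from gene-end regions to −0.0208. Leaving out 1 library gave ranges, knockdown minus control, of −1.86 to 1.20 percentage points in the share and −22.5 to 12 bases in width, and, within minus across groups, of −0.0150 to 0.00990 in rank similarity and −1.50 to 1.83 bases in summit distance. The class difference in log2 fold from gene-end regions ran from 0.00658 to 0.0201. The others ran from 0.0191 to 0.0245 (log2 fold) and −8.30 to −6.50 bases (width) against gene-body regions, and from −164 to −144 bases (width) and −12.4 to −10.9 bases (summit spread) against gene-end regions, with p no lower than 0.0625 because 5 libraries allow none smaller. The cause of the other changes was not tested.

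With the replicate number as a block, the paired differences in share, relative fold and width averaged −0.868 percentage points, 0.00835 and −4.00 bases, and no call was possible, since 0.25 is the smallest p that 3 pairs allow. Deviations of same-numbered libraries correlated at 0.0556, −0.0390 and −0.0563, and those of different-numbered libraries at −0.0786 to 0.105. Such values showed no pairing by number, but at this depth they cannot exclude one. With regions assigned to both flanking genes, each list's share stayed within its interval. Windows of 2000 bases, a limit of 50 kb, means and ranking by −log10 q moved no direction or call. Median summits of 10 to 19 tags limit the precision of every value.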
